A study of Mus musculus with 9 samples.

Results

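Necroptosis is a regulated form of lytic cell death, and 7 genes of its machinery were followed here in whole mouse lungs after transplantation. They are Ripk1, Ripk3, Mlkl, Zbp1, Casp8, Fadd and Cflar, chosen by gene symbol among the 23944 genes of the deposited tables, and all 7 passed the filter on low counts that left 15834 genes. The series asked what hypovolemic shock of the donor does to a transplanted lung. Shock grafts were left lungs of adult wild-type C57BL/6 donors that went through 4 h of hypovolemic shock at a mean arterial pressure of 15 ± 5 mmHg and 20 h of recovery, then 24 h of storage at 0 °C, transplantation into Balb/C mice and 2 h of reperfusion. Cold-ischemia grafts had the same storage, transplantation and reperfusion without shock, and naive lungs came from adult wild-type C57BL/6 mice. Each group had 3 libraries, and a graft can hold recipient blood cells beside the donor's own cells.

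In this pathway RIPK1, a kinase below the TNF receptor, binds RIPK3 through a shared motif called RHIM, and RIPK3 then phosphorylates MLKL, which assembles in the plasma membrane and breaks it open. ZBP1 is a sensor of Z-form nucleic acids that carries RHIMs as well and can engage RIPK3 without RIPK1. The adaptor FADD brings caspase-8 to RIPK1, and caspase-8, paired with the long form of cFLIP (encoded by Cflar), cleaves RIPK1 and RIPK3 and so holds necroptosis back. The libraries measure RNA, so neither phosphorylation of MLKL nor cell death itself was seen. Counts per gene also do not part the long and short forms of Cflar.

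Total counts ran from 18913487 to 34986276 reads per library. The titles and the deposited tables disagree on the group of 2 of the 6 grafts: the library titled cold-ischemia replicate 2 stands with the shock libraries in the tables, and the library titled shock replicate 3 stands with the cold-ischemia libraries. Groups are those of the titles unless the tables are named. The set of 6 grafts compared with naive lungs is the same under both groupings. The 3 naive libraries, unlike the 6 grafts, carry a label that points to a further series, and in every comparison with naive lungs a possible batch and the group cannot be told apart. The 10 epithelial markers of lung were present in all libraries. Over all grafts 2 of them rose, Epcam by 0.96 and Cdh1 by 1.02 on the log2 scale, and 0 fell. Their sums, made up mostly of Scgb1a1 and Sftpc, were 36081 to 43648 CPM (read counts scaled to the TMM-adjusted library size) in shock grafts. They were 32045 to 48329 CPM in cold-ischemia grafts and 37401 to 47228 CPM in naive lungs. All 10 neutrophil markers rose in the grafts, and their sum was 1731 to 3031 CPM in shock grafts and 1070 to 2016 CPM in cold-ischemia grafts, against 52.1 to 77.0 CPM in naive lungs, with no marker at 0 in every library of a group. Of 10 monocyte and macrophage markers 4 rose, Cd14 by 4.73, and 2 fell. Their sums were 5009 to 7589 CPM in shock grafts, 5955 to 7998 CPM in cold-ischemia grafts and 6070 to 6877 CPM in naive lungs. Lyz2, which did not pass, made up most of these sums. It averaged 5074 CPM in shock grafts, 6247 CPM in cold-ischemia grafts and 6251 CPM in naive lungs. Of 6 B cell markers 5 fell and none rose (38.8 to 52.9 CPM in shock grafts and 33.9 to 52.3 CPM in cold-ischemia grafts, against 79.5 to 106 CPM in naive lungs). Of 6 mesothelial markers 5 fell and 1 rose, with a median log2 fold change of -3.26 and sums of 408 to 490 CPM in shock grafts and 371 to 495 CPM in cold-ischemia grafts, against 323 to 380 CPM in naive lungs. The marker that rose, Krt19, made up most of the graft sums. It averaged 410 CPM in shock grafts and 409 CPM in cold-ischemia grafts, against 122 CPM in naive lungs. Of 8 endothelial markers 3 fell and 1 rose, and of 10 T and NK cell markers 2 fell and 1 rose. In such bulk tissue a change in cell numbers and a change of RNA per cell cannot be told apart. The part of these cell types in the values below was not tested.

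Promoter sequences of RefSeq (build GRCm38.p6, 250 bases before and 50 after the start of a RefSeq transcript) were found for 6 of the 7 genes, Zbp1 being the other. The start in the Casp8 window lies 7128 bases inside the gene as the deposited tables bound it, that of the second Ripk1 window 511 bases inside, and the others within 28 bases of its start. They were searched on both strands for GAAA followed by any 2 bases and GAAA again, the core of the interferon-stimulated response element, for TTCNNNGAA, the palindromic site of STAT factors, and for the NF-κB consensus. These motifs stand in 3.44%, 8.30% and 4.51% of the 32851 promoters of this length. Shown are the only 2 promoters of these genes with any match, which belong to 2 of the genes that rose, and that of Mlkl, which rose without one. Capitals mark the matches.
Ripk1, second promoter, plus strand of chr13:34002624-34002923: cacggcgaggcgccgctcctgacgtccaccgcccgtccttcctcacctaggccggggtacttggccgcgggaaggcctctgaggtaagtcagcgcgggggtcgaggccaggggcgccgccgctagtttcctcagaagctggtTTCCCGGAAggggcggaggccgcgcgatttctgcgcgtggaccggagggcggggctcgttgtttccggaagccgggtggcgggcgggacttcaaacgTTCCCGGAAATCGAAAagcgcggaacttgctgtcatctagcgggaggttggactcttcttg
Cflar, plus strand of chr1:58711241-58711540: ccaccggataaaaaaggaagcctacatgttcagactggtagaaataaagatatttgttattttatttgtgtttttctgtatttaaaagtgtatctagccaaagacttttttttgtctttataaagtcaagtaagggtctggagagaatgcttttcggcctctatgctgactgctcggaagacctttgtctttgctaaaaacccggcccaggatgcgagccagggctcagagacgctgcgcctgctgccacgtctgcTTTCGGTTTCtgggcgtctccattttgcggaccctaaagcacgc
Mlkl, minus strand of chr8:111338156-111338455: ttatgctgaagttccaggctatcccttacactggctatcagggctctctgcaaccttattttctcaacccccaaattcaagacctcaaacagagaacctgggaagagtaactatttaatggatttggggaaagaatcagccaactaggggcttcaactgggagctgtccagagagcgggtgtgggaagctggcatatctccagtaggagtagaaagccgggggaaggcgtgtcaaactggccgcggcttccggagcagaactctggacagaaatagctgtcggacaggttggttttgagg
The second Ripk1 window holds 2 matches to the STAT site, the later of which shares 3 bases with a match to the interferon element that begins 5 bases before that start. The Cflar window holds 1 interferon element on the minus strand, beginning at base 7 of the transcript. The first Ripk1 window and those of Mlkl, Ripk3, Casp8 and Fadd have none of the 3 motifs, which says only that these letters are not there.

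Compared over all 6 grafts, 5 of the 7 genes rose and 1 fell relative to naive lungs. Ripk1, Mlkl, Cflar and Zbp1 were 2.69-fold to 3.11-fold higher, Ripk3 was 1.78-fold higher, Fadd was at 0.623 of its naive level, and Casp8 did not pass the test. The test was edgeR's quasi-likelihood test at an adjusted p of 0.05 over all genes. Of all genes tested 22.1% rose and 19.7% fell in this comparison, so calls of this kind were frequent. The libraries of 6 of the 7 genes did not overlap between grafts and naive lungs, as was the case for 40.9% of all genes. That count is on TMM-scaled CPM. On the deposited FPKM it was 4 of the 7 genes, beside 50.5% of all genes, since Ripk3 and Zbp1 then overlapped. The median log2 fold change of the 7 genes was 1.43, beside -0.05 for all genes tested. Between naive lungs and grafts the 7 genes also changed their order within a library, as described further on.

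**Figure D1:**
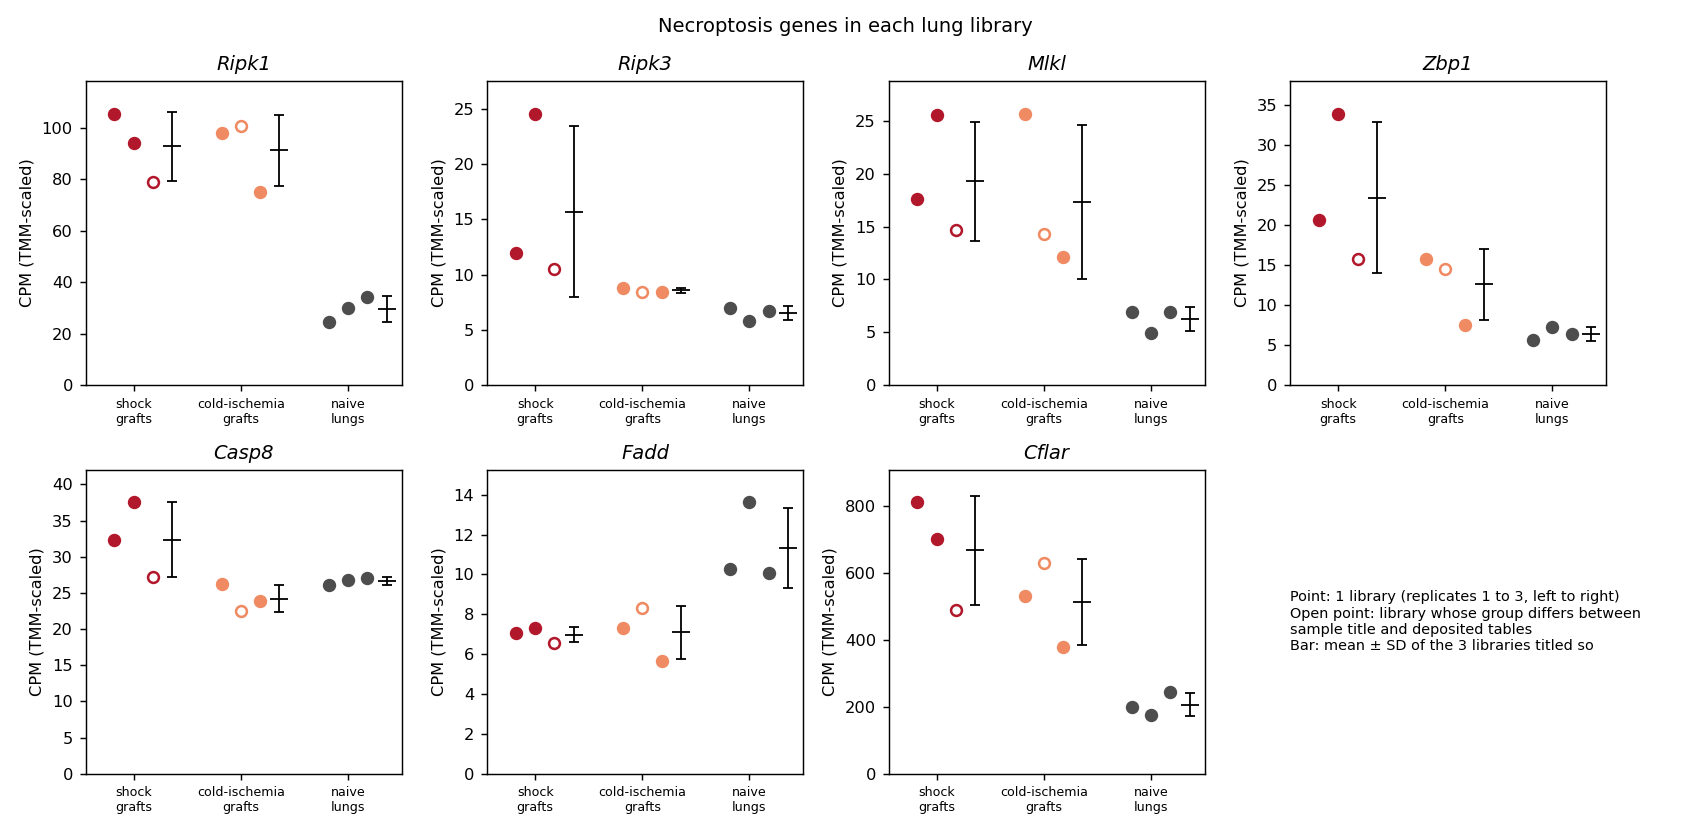
CPM (on TMM-scaled library sizes, linear axes from 0) of the 7 necroptosis genes in each library, with shock grafts on the left, cold-ischemia grafts in the middle, naive lungs on the right, open points for the 2 libraries of disputed group and bars for the mean ± SD of 3 libraries. On this scale all 6 grafts lie above the 3 naive lungs for Ripk1, Ripk3, Mlkl, Zbp1 and Cflar and below them for Fadd, while the groups overlap for Casp8.

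Ripk1, the kinase at the head of the pathway, rose 3.11-fold over all grafts. It had 106, 94.0 and 79.0 CPM in shock replicates 1, 2 and 3 and 97.9, 101 and 75.3 CPM in cold-ischemia replicates 1, 2 and 3, against 24.5, 29.9 and 34.4 CPM in naive replicates 1, 2 and 3. Every graft stood far above every naive lung, and the values of the graft groups were interleaved. The log2 fold change was 1.64 ± 0.16 (SE, adjusted p = 3.2e-05) over all grafts, 1.65 ± 0.18 in shock grafts and 1.62 ± 0.18 in cold-ischemia grafts. Ripk1 lies on the plus strand of chr13:34002363-34035170 of mm10. In GENCODE M21 its exons share 241 bases with Serpinb6a on the opposite strand and 511 with the pseudogene Gm17084 on the same strand. Serpinb6a had 2281 to 2933 reads in grafts and 2193 to 3939 in naive lungs, a log2 fold change of 0.24 that did not pass (adjusted p = 0.11), and Gm17084 had 14 to 56 reads in grafts and 4 to 35 in naive lungs. The profile nearest to that of Ripk1 over the 9 libraries, by the mean absolute difference of centred log2 CPM, was that of the co-chaperone gene Bag3 (0.065), followed by Rab11fip1 (0.086).

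Ripk3, which carries the signal to MLKL, passed the test in shock grafts but not in cold-ischemia grafts, and the difference between the graft groups did not pass either. It had 12.0, 24.6 and 10.5 CPM in shock replicates 1, 2 and 3 and 8.80, 8.44 and 8.45 CPM in the cold-ischemia replicates, against 7.01, 5.79 and 6.73 CPM in the naive replicates. On CPM no graft overlapped the naive lungs, and shock replicate 2 stood well above the other grafts. On FPKM naive replicate 1, at 4.22, lay above the cold-ischemia replicates, at 4.07, 4.06 and 4.15. Ripk3 rose by 1.26 ± 0.29 in shock grafts (adjusted p = 0.0062) and had 0.39 ± 0.29 in cold-ischemia grafts (adjusted p = 0.35). Without shock replicate 2 the rise in shock grafts was 0.78 and still passed. The value over all grafts, 0.83 ± 0.26 (adjusted p = 0.025), lost its call without naive replicate 1 (adjusted p = 0.063), 2 (0.10) or 3 (0.068) and under upper-quartile scaling (0.065). In the authors' deposited table, with its own grouping, Ripk3 had a log2 fold change of 0.50 in cold-ischemia grafts with an adjusted p of 0.0286. Shock replicate 2 also had the highest sum of neutrophil markers (3031 CPM) and the lowest sum of 8 endothelial markers (2515 CPM, against 3610 to 4153 CPM in the other grafts and 3801 to 4134 CPM in naive lungs), and their part in its Ripk3 level was not tested. The nearest profiles were those of Vav1 (0.11), a signalling gene of blood cells, and Pik3cd (0.13), a phosphoinositide kinase gene of leukocytes.

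Mlkl, whose product breaks the membrane, had 17.6, 25.6 and 14.7 CPM in shock replicates 1, 2 and 3 and 25.7, 14.3 and 12.1 CPM in the cold-ischemia replicates, against 6.90, 4.93 and 6.93 CPM in the naive replicates. Every graft exceeded every naive lung, and the highest shock and the highest cold-ischemia library were alike. Mlkl rose by 1.62 ± 0.31 in shock grafts (adjusted p = 0.0022) and by 1.47 ± 0.31 in cold-ischemia grafts (adjusted p = 0.0049). The profiles nearest to it were Lonrf3 (0.14) and Ptbp2 (0.16). Mlkl lies on the minus strand of chr8:111311797-111338177, and its exons share no base with another gene in GENCODE M21.

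Zbp1, the sensor, rose in both graft groups. Its levels were 20.7, 34.0 and 15.7 CPM in shock replicates 1, 2 and 3 and 15.7, 14.6 and 7.48 CPM in the cold-ischemia replicates, against 5.58, 7.28 and 6.35 CPM in the naive replicates. On CPM cold-ischemia replicate 3 lay just above the highest naive lung, and shock replicate 2 stood highest. On FPKM cold-ischemia replicate 3, at 2.17, lay below naive replicate 2, at 2.56. The log2 fold change was 1.88 ± 0.33 in shock grafts (adjusted p = 0.0014; 1.51 without shock replicate 2) and 0.98 ± 0.33 in cold-ischemia grafts (adjusted p = 0.044). The call in cold-ischemia grafts was lost under upper-quartile scaling (adjusted p = 0.080), without both disputed libraries (0.089), and without cold-ischemia replicate 1 (0.15) or 2 (0.13), without naive replicate 1 (0.14), 2 (0.079) or 3 (0.11) or without shock replicate 1 (0.054). The profiles nearest to Zbp1 were those of the interferon-induced genes Oas1a (0.13) and Irf9 (0.15).

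On the side of caspase-8, which restrains the pathway, the 3 genes went different ways. Cflar had 810, 701 and 488 CPM in shock replicates 1, 2 and 3 and 531, 630 and 377 CPM in the cold-ischemia replicates, against 198, 177 and 245 CPM in the naive replicates. It was the most abundant of the 7 genes per length in every library, and each graft exceeded each naive lung. It rose by 1.69 ± 0.24 in shock grafts (adjusted p = 0.00039) and by 1.31 ± 0.24 in cold-ischemia grafts (adjusted p = 0.0022), with Furin (0.087) and Abl2 (0.094) as nearest profiles. Cflar lies on the plus strand of chr1:58711508-58758884, upstream of Casp8 on the same strand at chr1:58795374-58847503.

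Casp8, the initiator caspase, did not pass the test in any comparison. It had 32.3, 37.5 and 27.2 CPM in shock replicates 1, 2 and 3 and 26.2, 22.5 and 23.9 CPM in the cold-ischemia replicates, against 26.1, 26.7 and 27.1 CPM in the naive replicates. The naive values were close together and inside the range of the 6 grafts. On CPM the shock libraries all lay above the naive lungs, replicate 3 only just, as for 53.6% of all genes free of overlap there. On FPKM the cold-ischemia replicates, at 9.21, 8.22 and 8.91, all lay below the naive replicates, at 11.9, 12.1 and 11.8. In that comparison 59.9% of all genes were free of overlap on FPKM. Over all grafts the log2 fold change was 0.07 ± 0.13, with a 95% interval of -0.18 to 0.32 (adjusted p = 0.69), with values of 0.28 ± 0.15 in shock grafts (adjusted p = 0.16) and -0.14 ± 0.15 in cold-ischemia grafts (adjusted p = 0.53). The value in shock grafts was 0.16 without shock replicate 2 and 0.39 without shock replicate 3 (adjusted p = 0.061). That in cold-ischemia grafts was -0.09 without cold-ischemia replicate 2 and -0.20 without cold-ischemia replicate 1. Without both disputed libraries the value in shock grafts was 0.39 (adjusted p = 0.055). The value over all grafts turned to -0.13 under upper-quartile scaling, which moved the median of all genes from -0.05 to -0.25 and did not turn any other of the 7 genes in a comparison with naive lungs. Its nearest profiles were Edc4 (0.057) and Morc3 (0.062).

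Fadd, the adaptor between RIPK1 and caspase-8, was the gene that fell. It had 7.07, 7.32 and 6.55 CPM in shock replicates 1, 2 and 3 and 7.30, 8.32 and 5.68 CPM in the cold-ischemia replicates, against 10.3, 13.6 and 10.1 CPM in the naive replicates. All grafts lay below all naive lungs. Fadd fell by 0.69 ± 0.21 in shock grafts (adjusted p = 0.021) and by 0.67 ± 0.21 in cold-ischemia grafts (adjusted p = 0.031). Naive replicate 2 held the highest level, and without it the log2 fold changes were -0.54 in shock grafts (adjusted p = 0.10) and -0.52 in cold-ischemia grafts (adjusted p = 0.15). The call in cold-ischemia grafts was also lost without cold-ischemia replicate 1 (0.075) or 3 (0.10) or naive replicate 1 (0.054), and that in shock grafts without shock replicate 3 (0.052). Over all grafts the fall of 0.68 ± 0.17 (adjusted p = 0.0093) was likewise lost without naive replicate 2 (-0.53, adjusted p = 0.074). In GENCODE M21 Fadd shares 239 exon bases with the antisense gene Faddos, which had 0 reads in each graft and 3 or 4 in each naive lung, and its nearest profiles were Cog4 (0.091) and Smc3 (0.10).

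**Figure D2:**
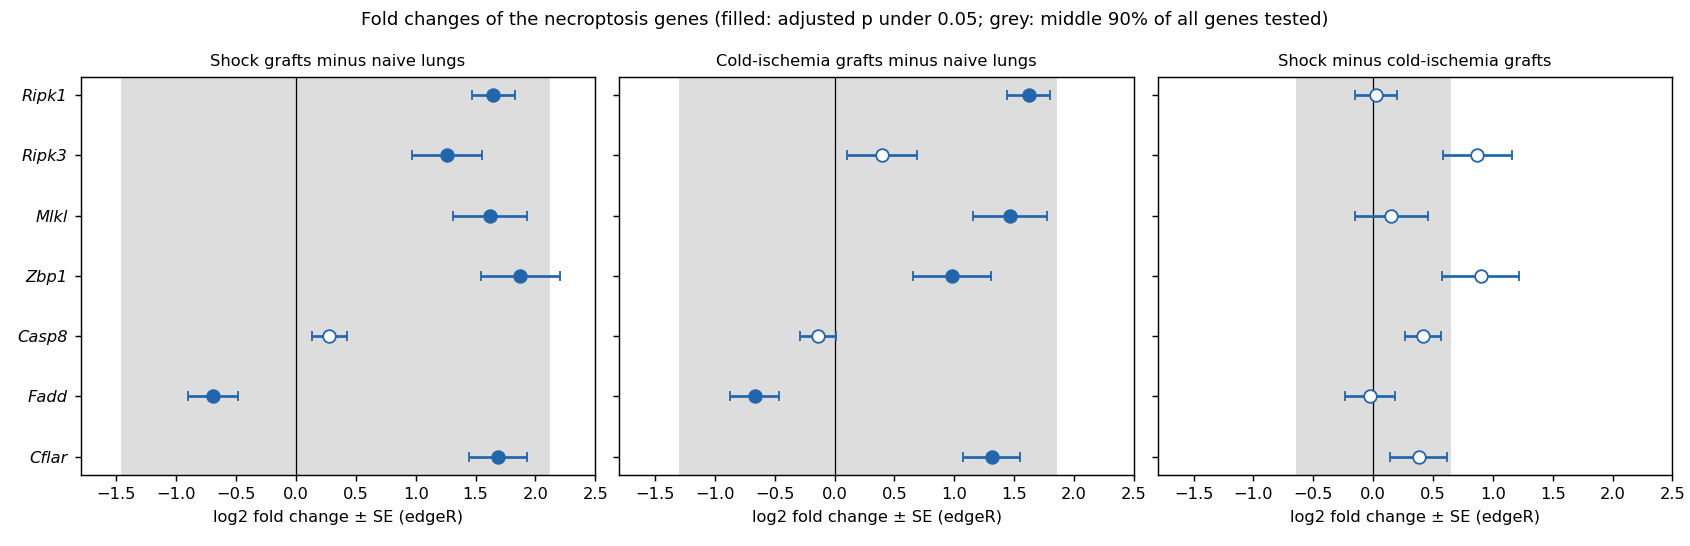
Log2 fold changes (points) with their standard errors (bars) for the 7 genes in shock grafts minus naive lungs, cold-ischemia grafts minus naive lungs and shock minus cold-ischemia grafts, with filled points for an adjusted p under 0.05. Grey marks the range between the 5% and 95% quantiles of all 15834 genes, which runs from -1.45 to 2.11, from -1.29 to 1.85 and from -0.63 to 0.64.

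The comparisons of each graft group with naive lungs use the same 3 naive libraries. In shock grafts 5 genes rose and 1 fell, where 22.0% of all genes rose and 17.9% fell. In cold-ischemia grafts 4 rose and 1 fell, where 17.5% rose and 13.1% fell. Shock and cold-ischemia grafts were then compared directly to see what donor shock added. None of the 7 genes passed, and by edgeR 0.0% of all genes did, with 1152 genes (7.28%) at an unadjusted p under 0.05 and 8 called by DESeq2. With the grouping of the deposited tables edgeR called 124 genes, and without both disputed libraries 39, none of them among the 7. The values of the 7 genes fell into those near 0 and those with a higher mean in shock grafts. Ripk1 differed by 0.03 ± 0.17 (95% interval -0.32 to 0.37), Fadd by -0.03 ± 0.21 (-0.43 to 0.38) and Mlkl by 0.15 ± 0.30 (-0.44 to 0.74). Zbp1 differed by 0.90 ± 0.32 (95% interval 0.27 to 1.53), Ripk3 by 0.87 ± 0.29 (0.30 to 1.44) and Casp8 by 0.42 ± 0.15 (0.13 to 0.71), with unadjusted p of 0.018, 0.013 and 0.018 and an adjusted p of 0.67 each in edgeR's test. Cflar differed by 0.38 ± 0.24 (95% interval -0.08 to 0.84, adjusted p = 0.69).

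Shock libraries lay above the cold-ischemia libraries without overlap on CPM for Ripk3 and Casp8, and 10.4% of all genes were free of overlap in this comparison. With the grouping of the deposited tables both overlapped and Cflar alone of the 7 genes did not, beside 23.2% of all genes. Without shock replicate 2 the differences were 0.39 for Ripk3, 0.53 for Zbp1 and 0.30 for Casp8. Shock replicate 2 thus moved the values of Ripk3 and Zbp1 by more than 1.5 times. Without both disputed libraries the differences were larger, at 1.08 for Ripk3, 1.23 for Zbp1, 0.48 for Casp8 and 0.74 for Cflar. Their adjusted p in edgeR's test was then 0.14 to 0.17. Without shock replicate 3 alone the differences of Ripk3, Zbp1 and Casp8 were larger as well. Cflar differed by 0.19 without cold-ischemia replicate 3 and by 0.22 without shock replicate 1, in a range of 0.19 to 0.56 over single omissions. With the grouping of the deposited tables Cflar differed by 0.62 ± 0.18 (adjusted p = 0.11), Zbp1 by 0.83 ± 0.34 (adjusted p = 0.22), Ripk3 by 0.69 ± 0.33 (adjusted p = 0.28) and Casp8 by 0.26 ± 0.17 (adjusted p = 0.44). In the authors' deposited table, which has that grouping, Cflar came closest to a call, with a log2 fold change of 0.57 and an adjusted p of 0.0526, and none of the 7 genes passed. The authors' deposited tables give 5 of the genes as higher and 1 as lower against naive lungs for each graft group. Of all genes with an adjusted p, the authors' deposited tables give 20.7% as higher and 16.6% as lower in shock grafts, 19.5% as higher and 16.7% as lower in cold-ischemia grafts, and 1.13% as higher and 1.97% as lower in shock against cold-ischemia grafts.

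Levels were next compared between the genes within a library, on the deposited FPKM values, which divide by gene length. In shock grafts Cflar averaged 92.7 ± 21.2 FPKM (SD, n = 3), Ripk1 18.9 ± 2.37, Casp8 11.5 ± 1.74, Mlkl 8.82 ± 2.55, Ripk3 7.31 ± 3.60, Zbp1 6.46 ± 2.58 and Fadd 1.64 ± 0.07 FPKM. Cold-ischemia grafts had 73.0 ± 17.5 FPKM of Cflar, 19.0 ± 2.57 of Ripk1, 8.78 ± 0.51 of Casp8, 8.07 ± 3.14 of Mlkl, 4.09 ± 0.05 of Ripk3, 3.53 ± 1.18 of Zbp1 and 1.71 ± 0.30 of Fadd. Naive lungs had 36.4 ± 5.39 FPKM of Cflar, 12.0 ± 0.12 of Casp8, 7.63 ± 1.11 of Ripk1, 3.85 ± 0.39 of Ripk3, 3.62 ± 0.65 of Mlkl, 3.37 ± 0.62 of Fadd and 2.23 ± 0.30 of Zbp1. The ranges of mean ± SD overlapped between neighbours from Casp8 to Zbp1 in shock grafts, between Casp8 and Mlkl and between Ripk3 and Zbp1 in cold-ischemia grafts, and among Ripk3, Mlkl and Fadd in naive lungs. The deposited FPKM is not TMM-scaled, and the mean of Casp8 was lower in grafts on this scale (10.1 ± 1.86 FPKM, n = 6, against 12.0 in naive lungs) and slightly higher on the CPM scale.

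Ripk1 exceeded Casp8 per length in 6 of 6 grafts and in 0 of 3 naive lungs. Mlkl exceeded Ripk3 in 6 of 6 grafts and in 1 of 3 naive lungs, and Zbp1 exceeded Fadd in 6 of 6 grafts and in 0 of 3 naive lungs. Such orders depend on the gene length used. The deposited length was 4495 bases for Ripk1 and 2585 for Casp8, against 8344 and 2893 exon bases in GENCODE M21. Whether the orders hold with other lengths was not tested. They are within a library and need no scaling between libraries.

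Ratios to Casp8, which likewise need none, were tested for 3 genes. The FPKM ratio of Cflar to Casp8 was 9.86, 7.35 and 7.08 in shock replicates 1, 2 and 3 and 7.96, 11.0 and 6.21 in the cold-ischemia replicates, against 2.98, 2.60 and 3.56 in the naive replicates. All grafts stood above all naive lungs. On the log2 scale the ratio averaged 3.02 ± 0.31 in grafts (SD, n = 6) and 1.59 ± 0.23 in naive lungs (SD, n = 3), a difference of 1.42. The ratio of Mlkl to Casp8 was 0.704, 0.881 and 0.698 in shock lungs 1 to 3 and 1.27, 0.818 and 0.654 in cold-ischemia lungs 1 to 3, against 0.341, 0.238 and 0.330 in the naive replicates, a log2 difference of 1.45. That of Ripk3 to Casp8 was 0.488, 0.862 and 0.508 in shock lungs 1 to 3 and 0.442, 0.494 and 0.466 in cold-ischemia lungs 1 to 3, against 0.354, 0.285 and 0.327 in the naive replicates, a log2 difference of 0.72. Each of the 3 differences had p = 0.0238 in a two-sided exact permutation test of 6 grafts against 3 naive lungs, the smallest p that this design allows, and 0.0238 after Benjamini-Hochberg adjustment over the 3 ratios. The ratios share the same Casp8 values and are not independent of each other. Their genes were chosen with earlier results of these data known. Cflar, Mlkl and Ripk3 had each risen over all grafts while Casp8 had not passed, so these p-values add no support beyond those fold changes. How many of all genes part grafts from naive lungs in their ratio to Casp8 was not counted.

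**Figure D3:**
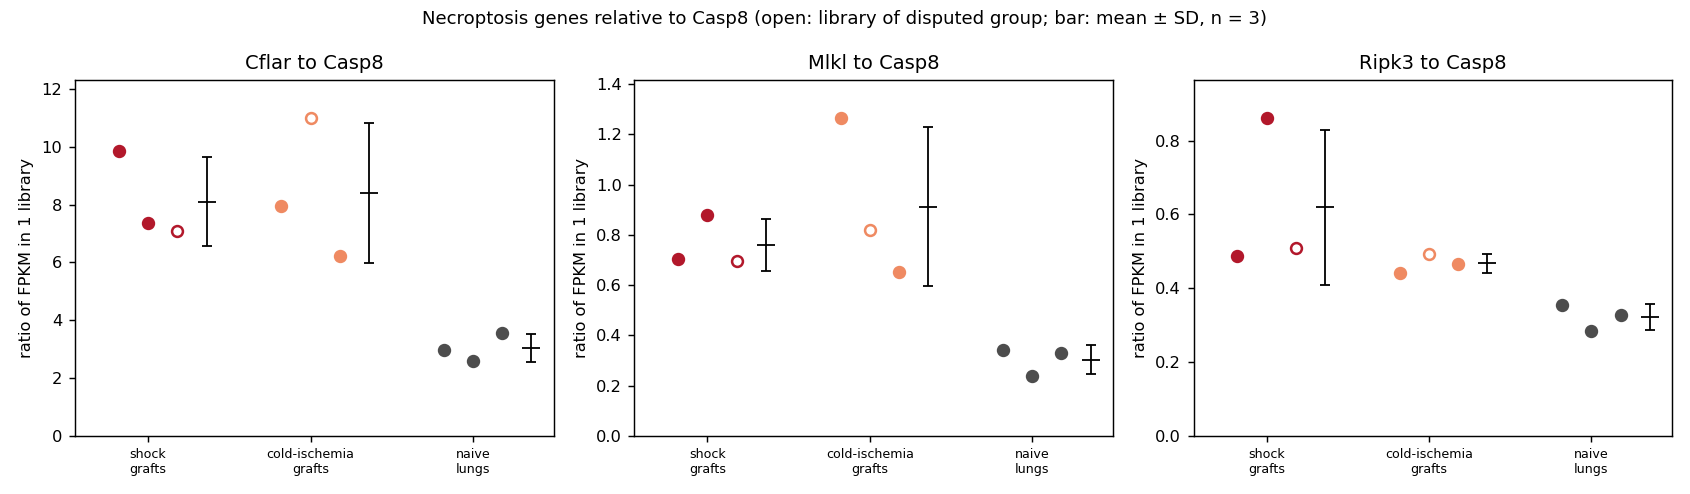
Ratio of the FPKM of Cflar, Mlkl and Ripk3 to that of Casp8 within each library (linear axes from 0), with shock grafts, cold-ischemia grafts and naive lungs from left to right open points for the 2 libraries of disputed group and bars for the mean ± SD of 3 libraries. In each panel the 6 grafts lie above the 3 naive lungs, and shock replicate 2 stands apart in the ratio of Ripk3 to Casp8 at 0.862.

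Genes that act around the machinery were followed in 7 lists over all 6 grafts against naive lungs, where 22.1% of all genes rose and 19.7% fell. The first list had 11 genes: death ligands, their receptors, the Toll-like receptor genes Tlr3 and Tlr4 and the adaptor gene Ticam1. Of these, 7 rose and 2 fell, with a median log2 fold change of 0.91. Tnf, the cytokine that starts the RIPK1 branch, averaged 53.9 ± 7.77 CPM in shock grafts and 80.1 ± 37.5 CPM in cold-ischemia grafts, against 0.535 ± 0.0574 CPM in naive lungs. Its receptor gene Tnfrsf1b rose by 2.99 and the death receptor gene Fas by 2.25. Tnfrsf1a, the other TNF receptor gene, rose by only 0.56. It did not pass in cold-ischemia grafts (0.37, adjusted p = 0.12 in edgeR's test). Tnfsf10, the ligand TRAIL, fell by 1.65, while its receptor gene Tnfrsf10b rose by 3.54.

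Of 14 genes of the ubiquitin control of RIPK1, which decides whether RIPK1 signals to NF-κB or to death, 9 rose and 2 fell, with a median of 0.64. Tnfaip3, which edits ubiquitin chains, averaged 1651 ± 324 CPM in shock grafts and 1691 ± 164 CPM in cold-ischemia grafts, against 26.0 ± 6.86 CPM in naive lungs. Birc3, a ubiquitin ligase of RIPK1, rose by 3.51 and Tnip1, a partner of Tnfaip3, by 3.66. Tradd, the adaptor that brings RIPK1 to the TNF receptor, fell by 1.09. Of 12 genes of kinases that phosphorylate and restrain RIPK1 and of their partners, 10 rose and 1 fell, with a median of 0.65. Mapkapk2 rose by 1.63, Tank, an adaptor of TBK1, by 1.59 and Tbk1 itself by 1.23, while Tab1, a partner of the kinase TAK1, fell by 1.35.

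Of 16 genes of interferon signalling and nucleic acid sensing, which surround Zbp1, 12 rose and 2 fell, with a median of 0.67. Irf1 rose by 2.32 and the DNA sensor gene Mb21d1, now named Cgas, by 2.48, while Mavs, the adaptor of RNA sensors, fell by 1.10. In shock grafts 13 of these genes rose and 1 fell, beside 22.0% and 17.9% of all genes. In cold-ischemia grafts 8 rose and 2 fell, beside 17.5% and 13.1% of all genes, and no gene of the list passed between the graft groups. Of 12 genes of cofactors, regulators and relatives of the necroptosis proteins 8 rose and 0 fell, with a median of 0.62. Not all of them promote necroptosis, so the count gives no direction for the pathway. Among those that rose were Ripk2, a relative of RIPK1 that serves NOD receptors (2.73), and the ubiquitin ligase gene Peli1 (1.49). Ippk, an inositol phosphate kinase gene whose product feeds a cofactor of MLKL, rose by 1.23.

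The apoptotic caspases and their partners moved both ways. Of 10 genes 5 rose and 3 fell, with a median of 0.18. Apaf1, the scaffold that activates caspase-9, rose by 0.97, while Casp9 fell by 1.30 and the effector gene Casp6 by 0.90. Among the 12 genes of the ESCRT-III machinery, which can shed membrane damaged by MLKL, 3 rose and 1 fell, with a median of 0.13. Chmp4b, a filament subunit, rose by 0.96, Pdcd6ip, which recruits the filaments, by 0.49 and Vps4b, an ATPase that takes them apart, by 0.48.

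**Figure D4:**
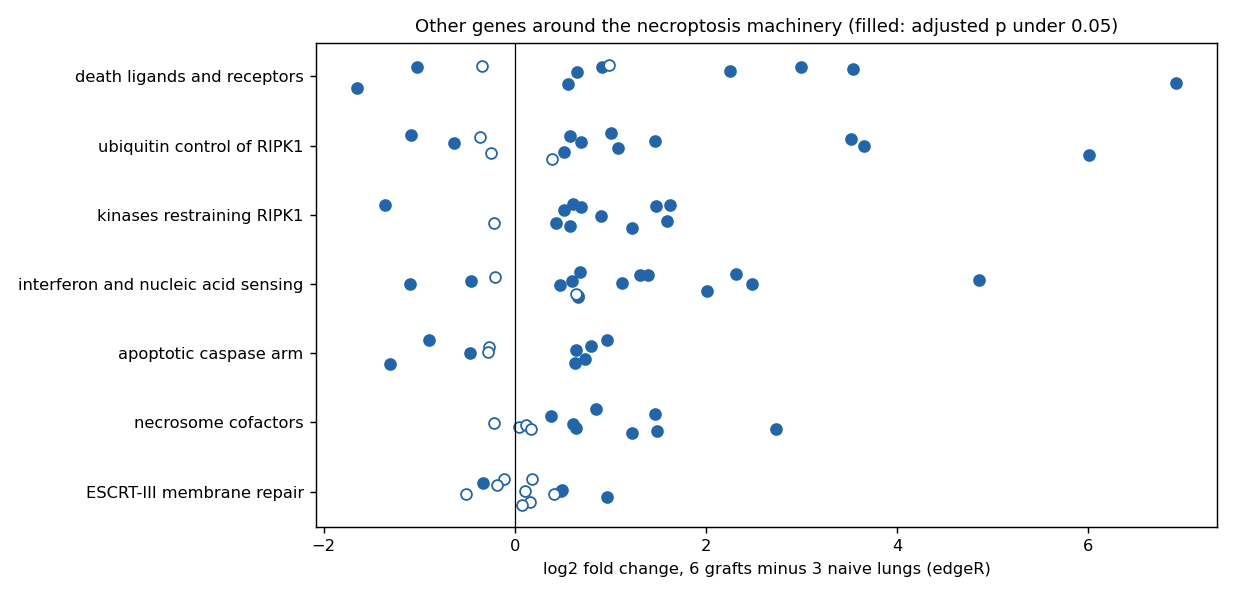
Log2 fold change in 6 grafts minus 3 naive lungs (x axis) for each tested gene of the 7 lists (rows), with filled points for an adjusted p under 0.05. Tnf at 6.92 and Tnfaip3 at 6.00 lie furthest right, and the ESCRT-III list has 3 genes called higher and 1 lower of 12.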

How the data were processed

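The authors deposited 3 tables with read counts per gene as whole numbers, per the file headers, together with a normalized signal, FPKM, and their own log2 fold change, p-value and adjusted p-value for each pair of groups. On the values, this signal equals the count over a size factor that is constant within a library. The submitters' processing notes name mm10 and the tools STAR-Fusion, STAR, edgeR, HTSeq and DESeq2; what each did, the annotation and the strand setting are not given in the sources used here. Coordinates are the tables' own. Libraries were made with NEBNext Ultra II from 1 µg of RNA and read as pairs of 150 bp, per the labels' protocols.

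The tables were joined by gene identifier, and no count differed between tables. Counts were tested with edgeR 4.0.16 in R 4.3.3 (TMM, filterByExpr, quasi-likelihood, all 9 libraries in 1 fit, 2-sided, Benjamini-Hochberg over 15834 genes), with the all-graft value as the mean of both graft groups minus naive. CPM uses TMM-scaled sizes, ± is SD for levels and SE for log2 fold changes, the SE being the log2 fold change over the square root of F, and 95% intervals are 1.96 SE. Such intervals take a normal distribution and so overstate the precision of a test with few degrees of freedom. The fit was tested on simulated data. The titles number lungs without naming animals, so p-values measure the spread between these samples. Ratios were tested with scipy 1.17.1. Alternatives were RLE or upper-quartile scaling, DESeq2 1.42.0, no filter, fits of 2 groups, the tables' grouping, a replicate block, each library left out and, added after the data were seen, both disputed libraries left out. The 7 genes and all lists were chosen with earlier results of these data known. Given with a value from each of the 7 lists were the 3 genes with the smallest adjusted p over all grafts. Tnfsf10, Tnfrsf10b, Tnfrsf1a, Tradd and Tab1 were added after their values were seen, as were the cell type markers that are named. The 2 nearest profiles per gene were sought among protein-coding genes averaging 2 CPM or more.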

Additional observations from a re-analysis of the deposited data

Results flagged for a closer look

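Ripk3 in shock replicate 2, at 24.6 CPM, stood apart from the other grafts, since its gap to the next graft took 0.781 of the range of the 6 grafts, above the limit of 0.625 for 6 samples. About 1 such group in 20 is marked by chance, and 7 genes were examined. Zbp1, at 34.0 CPM, and Casp8, at 37.5 CPM, were also highest in that library, with gaps of 0.501 and 0.347 of their ranges.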

How the results depend on the processing

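Over 28 log2 fold changes (7 genes in 4 comparisons) and 17 alternatives, 440 of 469 values kept their sign and their side of the threshold, 19 lost their call, none gained one and 10 turned their sign. Those that turned were all uncalled. Under upper-quartile scaling they were Casp8 over all grafts (-0.13) and Ripk1 between graft groups (-0.012). Between graft groups the grouping of the tables gave Fadd 0.22, and leaving out both disputed libraries gave Fadd 0.15. Leaving out single libraries there gave Fadd 0.11 without cold-ischemia replicate 2 and 0.02 without shock replicate 3, Mlkl -0.06 without cold-ischemia replicate 3 and -0.10 without shock replicate 2, and Ripk1 -0.11 without cold-ischemia replicate 3 and -0.08 without shock replicate 1. Over all single omissions these values ran from -0.18 to 0.11 for Fadd, -0.10 to 0.55 for Mlkl and -0.11 to 0.13 for Ripk1. The cause was not tested. With 1 library left out, 3 to 5 of the 7 genes passed in cold-ischemia grafts, 3 of them without cold-ischemia replicate 1, naive replicate 1 or naive replicate 2. Over all genes, 0 were called between graft groups in the main setting and without any single library, against 8 by DESeq2, 124 with the grouping of the tables and 39 without both disputed libraries. Over all grafts 3497 genes were called higher and 3123 lower, against 2689 higher and 5029 lower under upper-quartile scaling. The difference between grafts and naive lungs in the log2 ratio to Casp8 ran from 1.31 to 1.54 for Cflar, 1.28 to 1.54 for Mlkl and 0.58 to 0.79 for Ripk3 with 1 library left out, and without a naive library the smallest p the test allows is 0.0714. Correlations of the deviations from the group means were -0.39 to 0.10 between same-numbered libraries and -0.36 to 0.32 between differently numbered ones. With 3 libraries a group these values cannot settle whether replicate numbers pair the lungs. With the replicate block 6 of the 7 genes passed over all grafts, 6 in shock grafts, 5 in cold-ischemia grafts and 0 between graft groups, and 6111, 5801, 4296 and 0 of all genes did, which changed no call of the 7 genes.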
